A study of Mus musculus with 6 samples.

Results

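The collagen genes are described here across 6 arrays of mouse cardiac grafts, with 1 array for each group. A gene was taken as a member when its symbol was Col, a number, the letter a and a number, and when a probe set on the array was assigned to that gene alone. This gave 36 collagen genes with 58 probe sets, of 12393 genes with 20380 such probe sets. RefSeq lists 44 mouse genes with symbols of this form, and the other 8 (Col6a4, Col6a5, Col6a6, Col8a2, Col23a1, Col24a1, Col27a1 and Col28a1) were not analysed here. By type there were 9 fibrillar genes (I, II, III, V and XI), 8 basement membrane genes (IV, XV and XVIII), 3 genes of type VI, 1 of type VIII and 15 of other types.

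The reference groups were an untreated syngraft, a heart moved between genetically identical mice, and an untreated allograft, a heart moved across a genetic difference. The other 4 groups were allografts in treated recipients. BH4 (tetrahydrobiopterin, which nitric oxide synthases need as a cofactor) and ABH4 (4-amino tetrahydrobiopterin, an antagonist analog of BH4) were each dosed at 50 mg/kg at intervals of 8 h. NIL (N-imino ethyl-L-lysine, which inhibits inducible nitric oxide synthase) was dosed at 5 mg/kg at intervals of 8 h. CsA (cyclosporin A, a calcineurin inhibitor that blocks T cell activation) was dosed at 15 mg/kg at intervals of 24 h. All 5 allograft groups share the donor-recipient difference, which the syngraft lacks. For mouse strains, day of removal and any pooling of grafts, nothing was given in the sources used here. No group had a replicate, so no difference below could be tested against the spread between grafts and no p-value is given.

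Collagens are built from 3 chains wound into a triple helix, and the chains of a type can come from different genes. Fibrillar collagens form the load-bearing fibres of the heart, chiefly type I with type III, while type V sits inside the fibres and sets their width. Type IV forms the sheet-like network of basement membranes around muscle cells and vessels, and types XV and XVIII sit at its edge and carry sugar chains. Type VI forms beaded filaments between the basement membrane and the fibres, and type VIII forms a network made by vascular and fibroblast-like cells. In the heart the fibrillar and type VI chains are made mainly by fibroblasts, and the chief type IV chains also by endothelial and other cells.

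Signals are linear array intensities rescaled to a common array median. The floor was 34.8, which is the 30th percentile over the 6 arrays together, and for the differences lower signals were set to it. For that reason a fold difference with 1 array at the floor is a lower bound and is written "at least". Signals and summed signals are printed without the floor, so sums of genes at the floor have little meaning. Of several probe sets of a gene the brightest on average was used, and a gene counted as higher or lower when the difference was at least 2-fold. Of the 36 collagen genes 20 were above the floor on all 6 arrays, 7 on some arrays and 9 on none. The 9 were Col2a1, Col4a4, Col9a2, Col9a3, Col10a1, Col13a1, Col17a1, Col22a1 and Col26a1, several of them cartilage or epithelial collagens. Every gene that passed did so on the syngraft array (27 genes, against 22 on the untreated allograft array), so a median over the genes that passed leans towards genes high in the syngraft.

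The cardiac label was checked against its markers. Of 9 cardiomyocyte genes, 8 were above the floor on every array and the atrial light chain Myl7 on none, and their summed signal lay between 36363 and 46241. For Actb, the ratio of 3' to 5' probe set signals, a sign of RNA integrity, was 1.04 to 1.13. The highest deposited signal of an array was between 8819 and 10669. The array number limits the precision of every value. In bulk tissue, fewer cells of a type and less RNA per cell cannot be told apart.

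In the untreated allograft collagen transcripts were lower than in the syngraft across the fibrillar, VI, VIII, XIV, XV and XVI types, and by far less for type IV. Of the 36 genes, 15 were at least 2-fold lower and 0 were higher, where 4.81% of all genes on the array were lower and 6.87% higher. Without rescaling of the arrays the collagen counts were again 15 and 0, while 860 of all genes were lower and 633 higher, against 596 and 852 with it. The median log2 difference over all 36 genes was -0.60 (-1.10 over the 27 above the floor on some array), against 0.00 over all 12393 genes (0.01 over those above the floor). By type, 6 of 9 fibrillar, 3 of 3 type VI, the single type VIII, 1 of 8 basement membrane and 4 of 15 other genes were lower.

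The treated allografts differed in how many collagen genes stood above the untreated one. With CsA 13 of the 36 genes were at least 2-fold above the untreated allograft and 0 below it, against 3.21% and 4.06% of all genes. With BH4 10 were higher and 1 lower, against 1.54% and 0.42%. The BH4 array also had high signals of salivary secretion genes (a sum of 13516, against 172 to 493 on the others), whose part in its collagen values was not tested. With ABH4 3 were higher and 0 lower, against 0.694% and 0.282%, and with NIL none was higher and none lower, against 1.33% and 0.791%. Without rescaling 599 of all genes were higher and 327 lower with CsA (398 and 503 with it), and 269 and 53 with NIL (165 and 98 with it). The collagen counts were then 15 and 0 with CsA, Col5a3 (1.15) and Col18a1 (1.01) having been added, and 0 and 0 with NIL. The medians over the 36 genes were 0.45 for CsA, 0.17 for BH4 and 0.00 for both ABH4 and NIL, and the median over all genes was 0.00 in each. These 4 comparisons and that with the syngraft all use the untreated allograft array, so an error on that array would enter each of them.

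**Figure D1:**
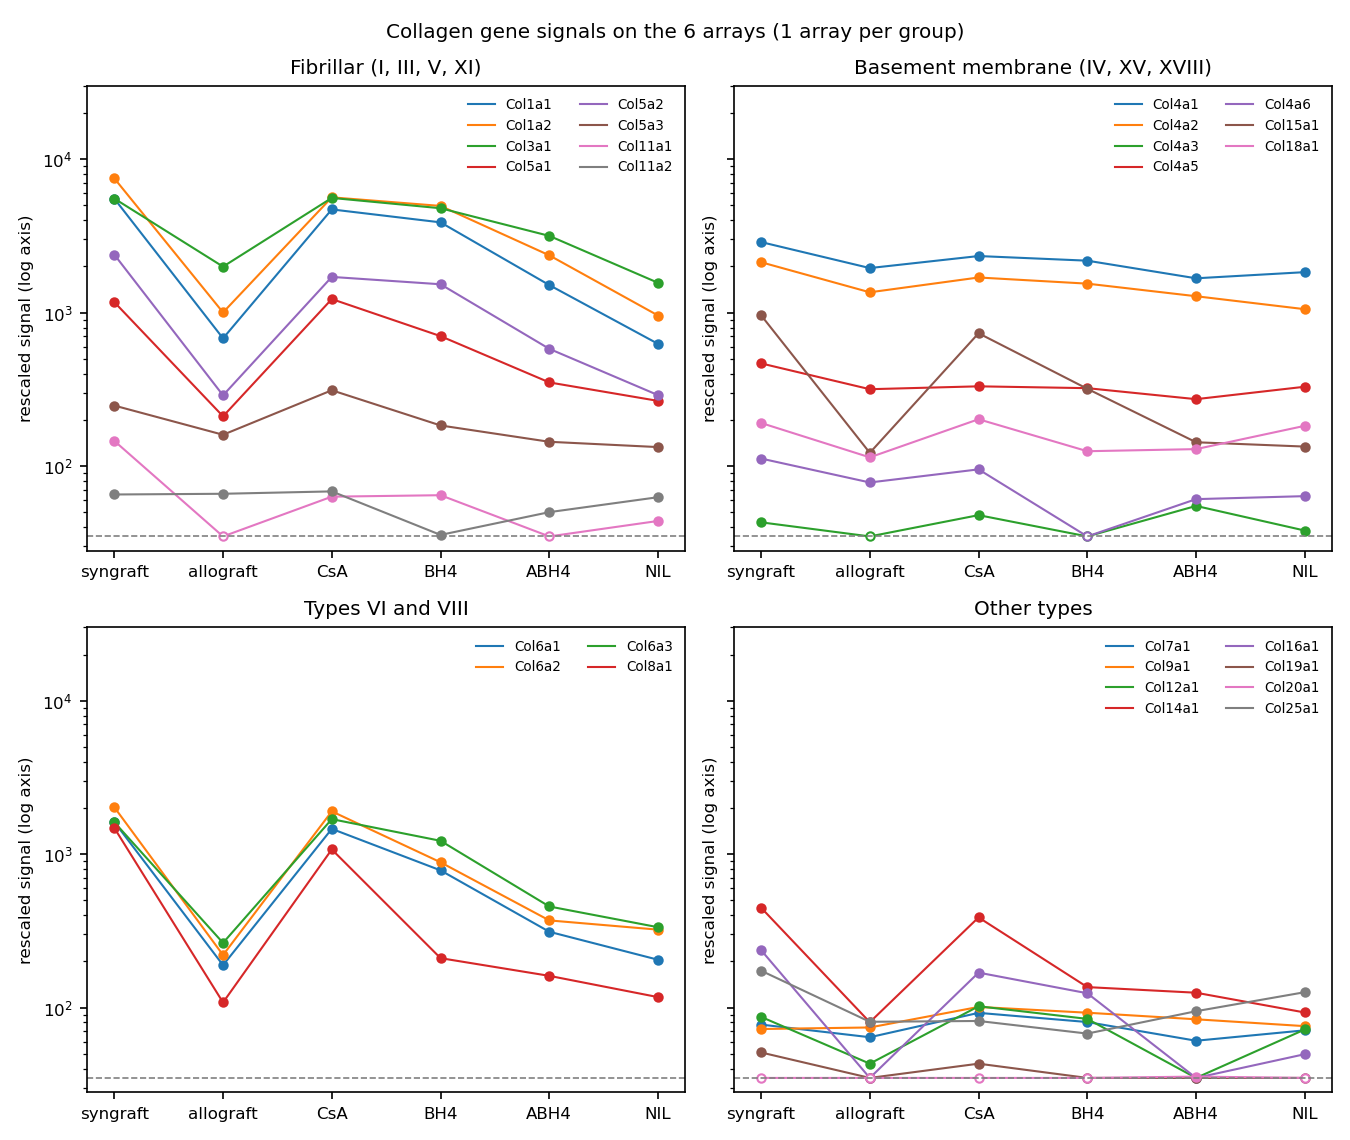
Rescaled signal (log axis) of the 27 collagen genes above the floor on at least 1 array, for the 6 arrays, in panels by collagen type. Points are single arrays, lines join the values of a gene, the dashed line is the floor of 34.8 and open points lie at it. Most fibrillar, type VI and type VIII lines dip on the untreated allograft and NIL arrays, and the Col4a1, Col4a2 and Col4a5 lines are flatter, while Col4a6 reaches the floor with BH4.

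The type I chains make the main fibre of heart and scar. The Col1a1 signal was 5537 on the syngraft array, 680 on the untreated allograft, 4708 with CsA, 3877 with BH4, 1513 with ABH4 and 626 with NIL. On this probe set the untreated allograft and NIL arrays were low and the CsA and BH4 arrays lay near the syngraft. On the dimmer Col1a1 probe set CsA minus syngraft was -1.03 on the log2 scale. The Col1a1 signal was 8.14-fold lower in the allograft than in the syngraft, and 6.92-fold, 5.70-fold and 2.22-fold above the allograft with CsA, BH4 and ABH4. Its partner Col1a2 had signals of 7506.5, 1002.9, 5643, 4960.4, 2363 and 958 in the same array order. That is 7.48-fold lower in the allograft, and 5.63-fold, 4.95-fold and 2.36-fold higher with CsA, BH4 and ABH4. NIL left both within 1.09-fold of the untreated allograft (1.09-fold and 1.05-fold lower). The differences of these 2 chains matched to within 1.09-fold in the allograft against syngraft comparison and to within 1.23-fold in the other 6 comparisons.

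Type III, the finer fibre that accompanies type I, is a single-gene collagen. The Col3a1 signal was 5542 on the syngraft array, 1994 on the untreated allograft, 5594 with CsA, 4791.5 with BH4, 3164 with ABH4 and 1565 with NIL. The order of the arrays was nearly that of type I, with a smaller spread: 2.78-fold lower in the allograft, and 2.81-fold, 2.40-fold and 1.59-fold higher with CsA, BH4 and ABH4. The size depended on the probe set, however. On the dimmer of its 2 probe sets the signal was 9.56-fold lower in the allograft and 6.94-fold, 5.24-fold and 2.27-fold higher with the same treatments.

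The bases upstream of the annotated starts of Col1a2 and Col3a1 are shown because these fibrillar genes moved together across the arrays. They are the 250 bases before each start in RefSeq's GRCm38.p6, on the plus strand at chr6:4505368-4505617 and chr1:45311288-45311537. Capitals mark the motifs searched on both strands: the TATA box TATAAA, the CCAAT box CCAAT and the GC box GGGCGG. Capitals of a motif on the opposite strand show its reverse complement.
Col1a2: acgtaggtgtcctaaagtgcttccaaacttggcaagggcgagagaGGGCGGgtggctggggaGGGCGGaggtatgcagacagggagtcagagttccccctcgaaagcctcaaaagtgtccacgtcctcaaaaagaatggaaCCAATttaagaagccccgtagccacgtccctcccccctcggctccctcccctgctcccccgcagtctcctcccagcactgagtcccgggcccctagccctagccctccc
Col3a1: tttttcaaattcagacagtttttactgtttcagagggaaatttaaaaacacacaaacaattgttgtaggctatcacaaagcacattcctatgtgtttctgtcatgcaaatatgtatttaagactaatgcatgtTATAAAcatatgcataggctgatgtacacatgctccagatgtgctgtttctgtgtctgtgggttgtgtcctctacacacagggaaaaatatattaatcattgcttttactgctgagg

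The 2 windows differ in these motifs. The Col1a2 window holds 1 CCAAT box, which starts 109 bases before the annotated start, and 2 GC boxes, and no TATAAA. In the Col3a1 window TATAAA occurs once, 117 bases before the annotated start, with neither other motif. Among all 32851 upstream windows of RefSeq genes, TATA boxes are in 12.4%, CCAAT boxes in 33.8% and GC boxes in 32.7%, on either strand. Of the 30 windows found for collagen genes on the array, 5, 12 and 16 held them. A match describes letters and no more.

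Type V chains co-assemble with type I and regulate fibre width. Col5a2, whose gene is the neighbour of Col3a1, had signals of 2390 on the syngraft array, 289 on the untreated allograft, 1710 with CsA, 1531 with BH4, 581 with ABH4 and 290 with NIL. It was 8.28-fold lower in the allograft and 5.92-fold, 5.30-fold and 2.01-fold higher with CsA, BH4 and ABH4. On its dimmer probe set the BH4 difference was 3.38-fold. The ABH4 difference was under 2-fold, at 0.94 on the log2 scale, as the mean of both probe sets. Col5a1 had signals of 1172, 211, 1226, 703, 351 and 266 in that array order. It was 5.56-fold lower in the allograft and 5.82-fold, 3.34-fold and 1.67-fold higher with the same treatments. On the dimmest of its 3 probe sets the ABH4 difference was 0.05 and the allograft difference -3.09 on the log2 scale.

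Col5a3, a minor chain of type V, differed from its partners. Its signals were 248 on the syngraft array, 160 on the untreated allograft, 312 with CsA, 184 with BH4, 144 with ABH4 and 133 with NIL. The allograft was 1.55-fold lower than the syngraft, and CsA was 1.95-fold above the allograft, or 1.15 on the log2 scale without rescaling. The 3 type V chains differed from each other by up to 5.35-fold in their allograft differences, against 1.09-fold for the type I chains.

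Type XI chains nucleate fibres in cartilage and are minor elsewhere. Col11a1 had signals of 146 on the syngraft array, 23.7 on the untreated allograft, 63.2 with CsA, 64.6 with BH4, 33.1 with ABH4 and 43.9 with NIL. The untreated allograft and ABH4 arrays lay at the floor, so the allograft was at least 4.20-fold lower. That difference was -0.81 on the log2 scale with a floor at the 50th percentile. Col11a2, its partner chain, ranged only from 35.6 with BH4 to 68.4 with CsA. Cartilage and tendon markers were low: of 8 such genes 4 were at the floor on all arrays, among them the cartilage genes Cnmd and Matn1. The cartilage gene Acan was above it on every array, at 40.8 to 58.9. Comp, at 37 to 81, was also above it, 2.10-fold lower in the allograft and 2.19-fold higher with CsA. The summed signal of the 8 genes lay between 158 and 250, with 4 to 6 of them at the floor on each array.

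The 3 chains of type VI assemble together, and their signals followed each other over the arrays. Col6a1 had signals of 1620.4 on the syngraft array, 189 on the untreated allograft, 1461 with CsA, 784 with BH4, 312 with ABH4 and 205 with NIL. Col6a2, its gene neighbour, had signals of 2023, 220, 1901, 885, 370 and 322 in the same array order. Col6a3, the large chain of the filament, had signals of 1616, 264, 1691, 1222, 456 and 334. For all 3 the untreated allograft was the lowest array and NIL the next, and CsA was within 1.11-fold of the syngraft. The allograft was 8.56-fold, 9.20-fold and 6.13-fold lower than the syngraft for Col6a1, Col6a2 and Col6a3. With BH4 they were 4.14-fold, 4.03-fold and 4.63-fold above the allograft, and with ABH4 1.65-fold, 1.68-fold and 1.73-fold. The other Col6a2 probe set, of a kind that can also bind related transcripts, gave 4.58-fold in place of 9.20-fold for the allograft, 4.58-fold in place of 8.65-fold for CsA and 2.42-fold in place of 4.03-fold for BH4.

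The type VIII chain Col8a1 had the largest allograft difference of the collagens measured above the floor on both arrays. Its signals were 1482 on the syngraft array, 108 on the untreated allograft, 1073 with CsA, 210 with BH4, 161 with ABH4 and 117 with NIL. Only the syngraft and CsA arrays were high. The allograft was 13.8-fold lower than the syngraft and CsA 9.97-fold above the allograft. BH4 was 1.95-fold and ABH4 1.49-fold above it, so with BH4 this gene was at 14.2% of its syngraft signal, where Col1a1 stood at 70.0%. The dimmer probe set was at the floor on the untreated allograft array and at least 7.66-fold lower there, and CsA was at least 6.06-fold above it.

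The 250 bases upstream of Col8a1 are shown for comparison with the fibrillar genes, since it differed from them on the BH4 array. They lie on the minus strand at chr16:57754738-57754987 of GRCm38.p6, and capitals mark the motifs given above.
Col8a1: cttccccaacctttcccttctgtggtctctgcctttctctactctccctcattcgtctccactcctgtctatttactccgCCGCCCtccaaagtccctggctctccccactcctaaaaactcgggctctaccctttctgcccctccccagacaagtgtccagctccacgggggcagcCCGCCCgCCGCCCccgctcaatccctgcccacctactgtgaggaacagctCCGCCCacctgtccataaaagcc

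This window holds 4 GC boxes, all on the opposite strand and the nearest starting 23 bases before the annotated start. Neither TATAAA nor CCAAT is among its letters. GC boxes were present in the Col1a2 and Col8a1 windows and absent from the Col3a1 window. Whether these letters bear on the signals was not tested.

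Type IV, the network of the basement membrane, differed less between the arrays in its main chains than types I and VI. From the highest to the lowest array the span was 1.72-fold for Col4a1 and 2.02-fold for Col4a2. Col4a2 was lowest with NIL, at 49.4% of its syngraft signal. Col4a1 had signals of 2884 on the syngraft array, 1952 on the untreated allograft, 2338 with CsA, 2181 with BH4, 1674 with ABH4 and 1836 with NIL. Col4a2, which forms the common heterotrimer with Col4a1, had signals of 2132, 1357, 1695, 1545, 1279.5 and 1053 in the same order. The allograft was 1.48-fold and 1.57-fold below the syngraft for these chains, and no treatment differed by as much as 1.30-fold from the untreated allograft. Col4a5, of the minor network, ranged from 273 with ABH4 to 467 on the syngraft array. The allograft differences of Col4a1, Col4a2 and Col4a5 were -0.56, -0.65 and -0.56 on the log2 scale, and -0.75, -0.84 and -0.75 without rescaling.

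Col4a1 and Col4a2 lie head to head on opposite strands, and as annotated they overlap at their starts. The stretch between the starts is shown because the differences of these genes lay within 1.21-fold of each other in all 7 comparisons. Col4a2 starts at 11312805 on the plus strand and Col4a1 at 11312826 on the minus strand. The stretch thus lies inside both genes as annotated and is not upstream of either start. It is 22 bases long at chr8:11312805-11312826 of GRCm38.p6, given on the plus strand, and the capitals mark a GC box.
Col4a1 and Col4a2: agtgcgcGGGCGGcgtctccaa

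Of the other type IV chains, Col4a3 was near the floor, between 9.54 on the untreated allograft array and 55 with ABH4. Col4a6, whose gene is the neighbour of Col4a5, had signals of 112 on the syngraft array, 78.2 on the untreated allograft, 95.2 with CsA, 16.4 with BH4, 60.9 with ABH4 and 63.7 with NIL. Only the BH4 array was at the floor, at least 2.25-fold below the untreated allograft. It was the single collagen gene at least 2-fold lower with a treatment than without, and it was not so as the mean of its 2 probe sets (-0.58).

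Types XV and XVIII are related collagens whose ends can be released as endothelial growth inhibitors, and they differed here. Col15a1 had signals of 962 on the syngraft array, 122 on the untreated allograft, 734 with CsA, 319 with BH4, 143 with ABH4 and 134 with NIL. The allograft was 7.86-fold below the syngraft, and the signal was 5.99-fold higher with CsA and 2.60-fold with BH4. Col18a1 had signals of 191, 114, 202, 125, 129 and 183 in that order, so the allograft was 1.67-fold lower. Unlike Col15a1, it stood near the syngraft with NIL, 1.60-fold above the allograft on the brighter probe set, while the other of its 2 probe sets differed in sign there.

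Among the other types, Col14a1 and Col12a1 are carried on the surface of type I fibres and Col16a1 is a relative of theirs. Col14a1 had signals of 448 on the syngraft array, 80.3 on the untreated allograft, 387 with CsA, 136 with BH4, 125 with ABH4 and 92.9 with NIL. The allograft was 5.58-fold lower, CsA 4.82-fold above it and BH4 1.69-fold above it. Col16a1 had signals of 237, 12.9, 169, 124, 31.4 and 49.7 in that order. With the untreated allograft and ABH4 arrays at the floor, the allograft was at least 6.83-fold lower, and CsA and BH4 were at least 4.85-fold and 3.58-fold higher. With a floor at the 50th percentile the BH4 difference of Col16a1 was 0.58 on the log2 scale, under 2-fold.

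Low signals limit what can be said of the rest. Col12a1 had signals of 87 on the syngraft array, 43.1 on the untreated allograft, 102 with CsA, 84.4 with BH4, 17 with ABH4 and 72 with NIL. Its allograft difference of 2.02-fold came to -0.91 (log2) when arrays were quantile normalized, and to -0.06 with the 50th percentile as floor. Col25a1, a transmembrane collagen of nerve and muscle, had signals of 174, 80.8, 81.8, 67.7, 94.7 and 126 in that order. It was 2.15-fold lower in the allograft, and with CsA it stayed at 47.1% of the syngraft. Col7a1, of anchoring fibrils, and Col9a1, of cartilage, ranged from 60.8 to 92.4 and from 72.5 to 101. Col19a1 and Col20a1 peaked at 51 and 35.5.

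**Figure D2:**
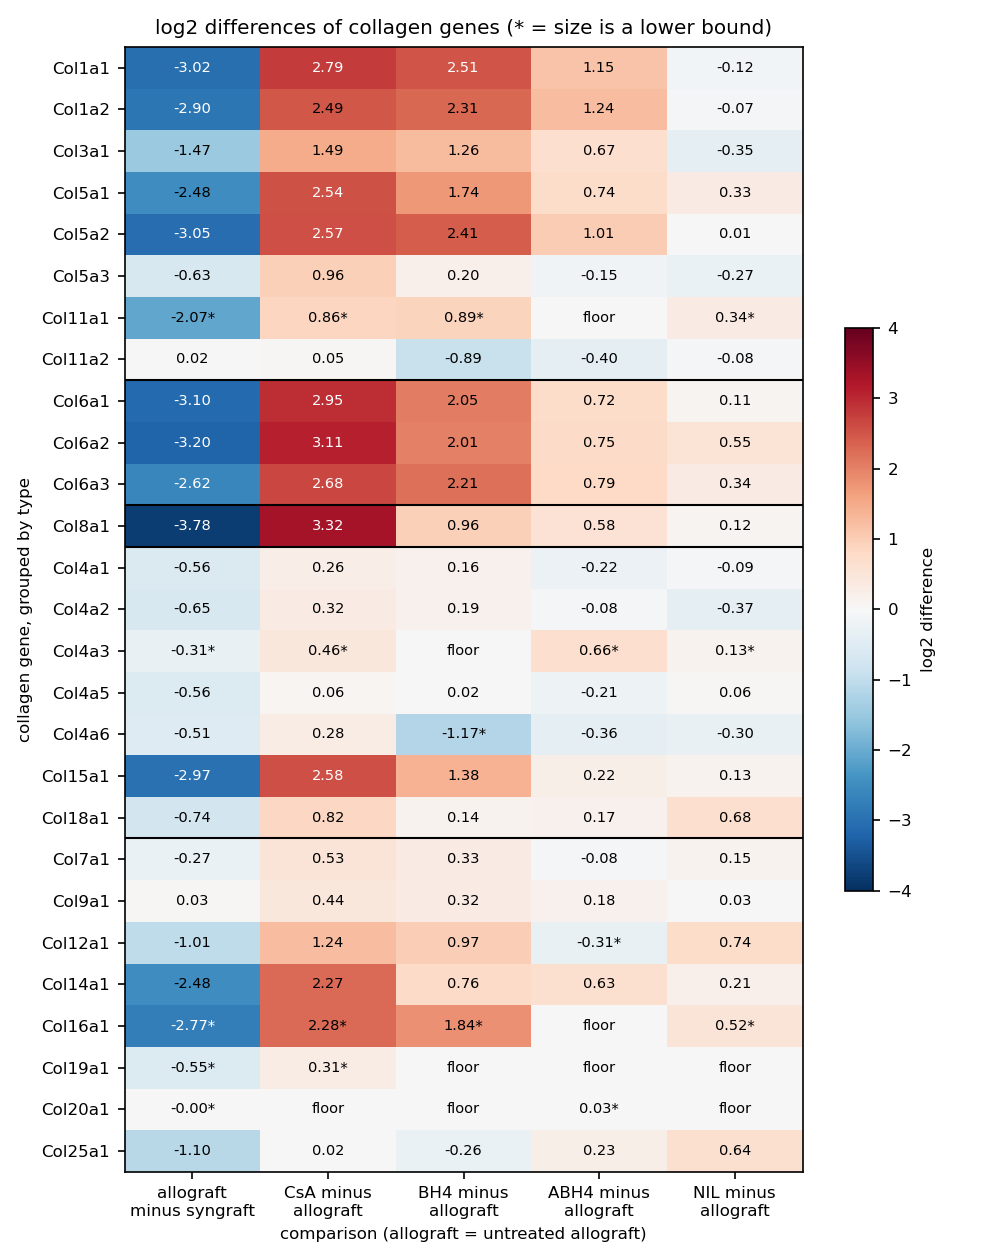
Log2 differences of the 27 collagen genes above the floor on at least 1 array (rows, grouped by type) in 5 comparisons (columns), with colour and number for the value. An asterisk marks a size that is a lower bound and "floor" a pair with both arrays at the floor. The 3 type VI genes and the fibrillar Col1a1, Col1a2, Col3a1, Col5a1 and Col5a2 exceed 1 with both CsA and BH4, while Col5a3, Col11a1 and Col11a2 do not, and Col8a1 is 3.32 with CsA and 0.96 with BH4.

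The 15 genes lower in the allograft were chosen on that contrast, so their order over the arrays is a description. In 11 of them the syngraft and CsA arrays came first, followed by BH4, ABH4 and then the untreated allograft and NIL. On the brightest probe sets, 13 of the 15 genes were within 1.5-fold of the syngraft with CsA and 4 with BH4. With NIL 13 were within 1.5-fold of the untreated allograft. As a percentage of the syngraft signal, their median was 14.7% in the untreated allograft, 85.0% with CsA, 52.4% with BH4, 27.3% with ABH4 and 20.7% with NIL. Values at the floor enter these medians as upper bounds, and all share the syngraft array.

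By type, the percentages with BH4 and CsA were as follows. With BH4 the median was 65.1% over the 6 fibrillar genes and 48.4% over the 3 type VI genes, while Col15a1 was at 33.1% and Col8a1 at 14.2%. The 4 genes of other types were spread widely with BH4, with Col12a1 at 97.0%, Col16a1 at 52.4%, Col25a1 at 39.0% and Col14a1 at 30.3%. With CsA the medians were 80.1% and 94.0%, with Col15a1 at 76.3%, Col8a1 at 72.4% and the other types at 116.9%, 71.1%, 47.1% and 86.3% in the order above. Over all 15 genes the range was 14.2% to 97.0% with BH4 and 43.3% to 116.9% with CsA. No test of these differences was possible with 1 array each, and BH4 and CsA were given at different doses and intervals. These percentages also rest on the brightest probe set of each gene. The dimmer probe sets of Col1a1, Col3a1, Col5a2 and Col6a2 gave differences of other sizes, as stated above. Whether the order of the types with BH4 holds on the dimmer probe sets was not tested.

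Against the syngraft, the CsA graft had 0 of 36 collagen genes at least 2-fold higher and 2 lower, where 2.28% of all genes were higher and 1.42% lower. The 2 were Col11a1, 2.31-fold lower, and Col25a1, 2.12-fold lower. The Col11a1 difference was -0.60 on the log2 scale as the mean of both probe sets. Col1a1 was 1.18-fold below the syngraft on its bright probe set, and -1.03 on the log2 scale on the dimmer one. The median over the 36 genes was 0.00 and over the 27 above the floor -0.21.

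BH4 and ABH4 differ in structure by an amino group at position 4 of the pterin ring in ABH4, and they were given at the same dose and interval. They form the single pair of related compounds here. The ABH4 graft had 10 of 36 collagen genes at least 2-fold lower than the BH4 graft and 0 higher, where 0.96% of all genes were lower and 0.46% higher. Col6a3, Col5a2, Col1a1 and Col6a1 were 2.68-fold, 2.64-fold, 2.56-fold and 2.51-fold lower, and Col16a1 at least 3.58-fold. Also lower were Col6a2 (2.39-fold), Col15a1 (2.23-fold), Col1a2 (2.10-fold), Col5a1 (351 against 703) and Col12a1 (at least 2.43-fold). Smaller differences were seen in Col3a1 (1.51-fold), Col8a1 (1.30-fold), Col4a1 (1.30-fold) and Col14a1 (1.09-fold). With 1 array each, no interval of these differences can be given. Of the 26 collagens above the floor on either array, 6 were higher with ABH4, among them Col4a6 (at least 1.75-fold), Col4a3 (at least 1.58-fold), Col11a2 (1.41-fold) and Col25a1 (1.40-fold). Several calls depended on the settings. Col5a1 was at -0.97 without rescaling. On the dimmer probe set Col5a2 was at -0.88 and Col6a2 at -0.98, under 2-fold, and Col3a1 at -1.21, past it. With the 50th percentile as floor Col12a1 was at -0.02 and Col16a1 at -0.58.

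The BH4 array differed from the others in content besides collagen. Salivary secretion genes, a list chosen with earlier results of these data known, were above the floor on it in 6 of 7, with Bpifa2 at 5806 against 14.9 to 56.2 elsewhere, and on the untreated allograft array 5 of the 7 were at it. Epithelial genes summed to 705 on the BH4 array, against 200 to 425, with Epcam at 56.5 and below 10 elsewhere. Whether RNA of another tissue adds to the collagen signals of the BH4 graft was not tested.

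**Figure D3:**
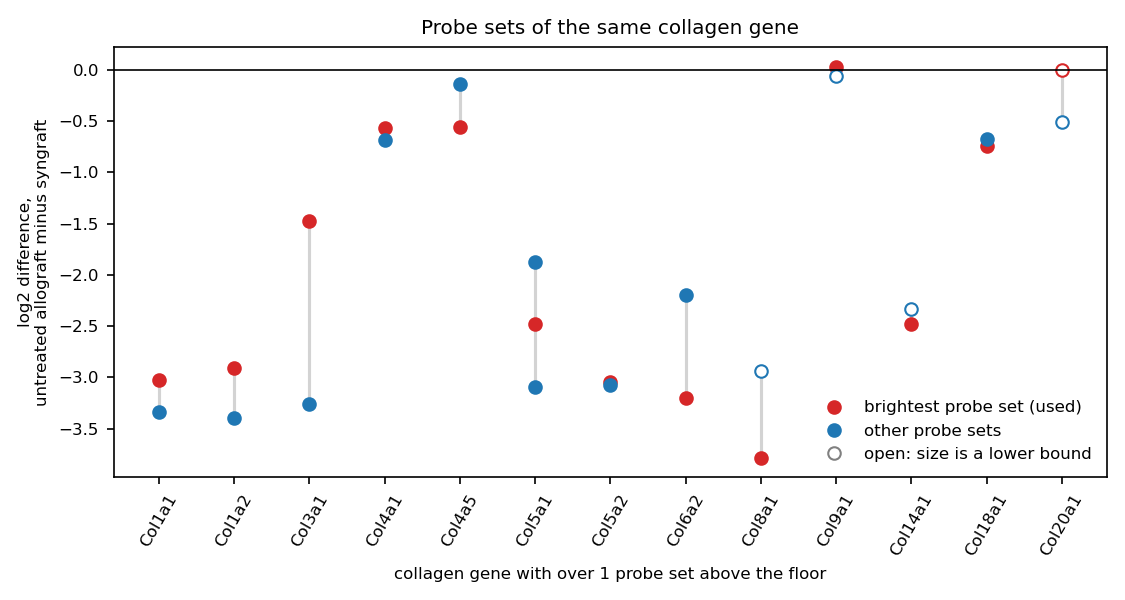
Log2 difference, untreated allograft minus syngraft (vertical axis), for each probe set of the 13 collagen genes with more than 1 probe set above the floor. Red marks the brightest probe set, blue the others, and open points are lower bounds. The 2 probe sets of Col5a2 coincide, and those of Col3a1 lie at -1.47 and -3.26.

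More than 1 probe set was present for 19 of the 36 genes, with at most 3 for a gene. Of all 58 collagen probe sets, 24 were at least 2-fold lower in the allograft than in the syngraft and 0 higher, and 17 were at the floor on both arrays. Over all 20380 single-gene probe sets 4.38% were lower and 6.3% higher. With CsA 22 were higher and 0 lower than in the allograft (2.77% and 3.78% of all probe sets), and with BH4 17 and 1 (1.38% and 0.5%). With ABH4 6 were higher and 0 lower (0.702% and 0.363%), and with NIL 0 and 0 (1.1% each). In the allograft comparison 1 gene, Col9a1, had probe sets of opposite sign, and with NIL 5 genes did. For type I and III the dimmer probe set gave the larger difference, 10.1-fold for Col1a1 and 10.5-fold for Col1a2. Whether the brightest probe sets are compressed near the top of the scale was not tested.

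Making collagen takes enzymes that modify and fold the chains, trim their ends and cross-link the fibres, and 48 such genes were listed with receptors and growth factors. Of the 37 with a probe set of their own, 9 were at least 2-fold lower and 1 was higher in the allograft than in the syngraft, with a median log2 difference of -0.33. With CsA 9 were higher and 0 lower than in the allograft, with BH4 5 and 0, with ABH4 0 and 0, and with NIL 0 and 0. The shares of all genes given above apply to these counts and to those of the cell type lists.

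Of the genes that act on collagen outside the cell, 2 of 4 for propeptide removal and 2 of 4 for cross-linking were lower in the allograft. Pcolce, which speeds removal of the procollagen end, had signals of 1831 on the syngraft array, 240 on the untreated allograft, 1319 with CsA, 869 with BH4, 475 with ABH4 and 216 with NIL, the same order as type I. The Pcolce signal was 7.63-fold lower in the allograft and 5.50-fold higher with CsA. Bmp1, the protease that makes that cut, was 2.73-fold lower in the allograft and 2.43-fold higher with CsA. Of these lists Pcolce2 (-0.95), Loxl3 (-0.69) and Loxl4 (-0.67) did not reach 2-fold on the log2 scale, and Tll1 was at the floor throughout. The cross-linking enzymes Lox and Loxl1 were 5.94-fold and 5.71-fold lower in the allograft, and with BH4 2.64-fold and 2.66-fold higher than there.

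Other genes act inside the cell. Of 12 modification and folding genes 3 were lower in the allograft: the prolyl 3-hydroxylase family member P3h3 (3.77-fold), Crtap, a partner of prolyl 3-hydroxylation (2.64-fold), and the prolyl 4-hydroxylase subunit P4ha2. Serpinh1, the collagen chaperone in the endoplasmic reticulum, had signals of 1967.5 on the syngraft array and 1797 on the untreated allograft. None of the 4 secretion genes was past 2-fold, with Sec23a 1.37-fold and Sec24d 1.31-fold lower. Serpinh1 was named after its values were seen, and P4ha2 likewise.

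Among 6 measured receptors, Mrc2, which takes up collagen for breakdown, was 5.47-fold lower in the allograft and 6.31-fold higher with CsA. Lair1, an inhibitory collagen receptor of immune cells, was 3.07-fold higher in the allograft. Of the 7 growth factor genes, Tgfb3 was 2.57-fold lower and Ccn2 1.80-fold lower in the allograft, and Tgfb1 differed by 0.38 on the log2 scale. Tgfb1 was also named after its values were seen.

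**Figure D4:**
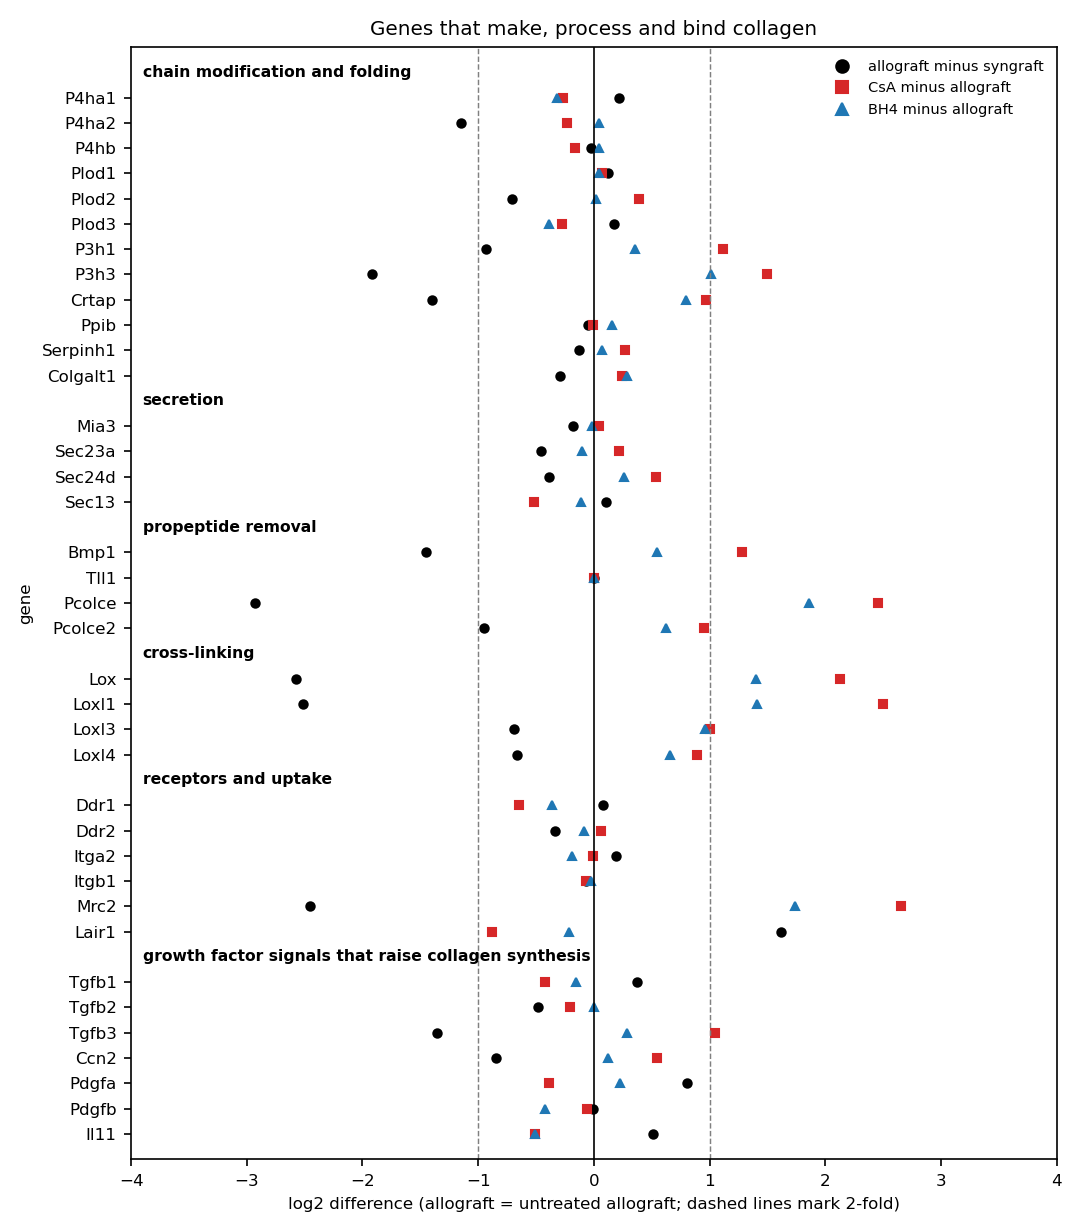
Log2 differences (horizontal axis) of the 37 measured genes that make, process and bind collagen, by list, for untreated allograft minus syngraft (black circles), CsA minus untreated allograft (red squares) and BH4 minus untreated allograft (blue triangles). Dashed lines mark 2-fold. Black points of Pcolce, Lox, Loxl1 and Mrc2 lie beyond -2.4, with their red points beyond 2.1 on the other side.

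Markers of the cells that make collagen were counted beside it. Of 11 measured fibroblast genes that encode no matrix protein, 5 were at least 2-fold lower and 1 higher in the allograft than in the syngraft (median -0.11), where 4.81% of all genes were lower and 6.87% higher. Their summed signal was 2501 on the syngraft array, 2154 with CsA and between 1230 and 1458 on the other 4. That sum holds Thy1, which T cells also carry and which ran the other way, from 275 with CsA to 761 with NIL. Without Thy1, left out after its values were seen, the sum of 10 genes was 2203 on the syngraft array, 549 on the untreated allograft, 1879 with CsA, 943 with BH4, 731 with ABH4 and 568 with NIL. The receptor Pdgfra, a defining marker of cardiac fibroblasts, had signals of 310 on the syngraft array, 10.4 on the untreated allograft, 244 with CsA, 186 with BH4, 95.1 with ABH4 and 30.3 with NIL. Tcf21, a fibroblast transcription factor, had signals of 134, 25, 117, 89, 42.2 and 23.7 in that order. Both were at the floor on the untreated allograft and NIL arrays, which were the arrays low in type I collagen. Pi16, a marker of adventitial fibroblasts, did not follow type I with BH4. Its signals were 520, 38.2, 150, 36.8, 27.6 and 14.5 in that order, 13.6-fold lower in the allograft.

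Among lists of other cell types, 5 of 9 smooth muscle and pericyte genes were lower in the allograft and none was higher (median -1.47), with a summed signal of 4537 on the syngraft array, 4166 with CsA and 2364 to 3117 on the others. Of 9 endothelial genes 3 were lower in the allograft and none higher (median -0.74), with sums of 2989, 2510 and 1874 to 2053. T cell genes summed to 92.6 on the syngraft array, where all 6 were at the floor, and to 170 with CsA, where 4 were. On the other arrays their sum was 1291 to 1907. T cell genes were thus low on the arrays highest in collagen, and Cd3e was at the floor on the syngraft and CsA arrays. Among the others the T cell sum was lowest with BH4, where collagen genes summed to 24465. It was highest with ABH4, where collagen genes summed to 13636, above the untreated allograft (9636) and NIL (9197). Macrophage genes were higher in the allograft in 3 of 8 and lower in 0, namely Msr1 (5.80-fold), Fcgr1 (3.69-fold) and Itgam (2.41-fold), and 2 of 8 were lower with CsA than in the allograft. Their summed signal was 8357 with CsA and 11828 with BH4, with the other 4 arrays between. Fat cell genes summed to between 961 and 2477, with Adipoq and Lep at the floor throughout and Retn at 81 to 152. Most of that sum was Fabp4, at 842 to 2337, which was 2.42-fold lower in the allograft than in the syngraft. Of the skeletal muscle genes 4 of 8 were at the floor on all arrays. Their sum, 5823 on the syngraft array and 1419 to 2135 elsewhere, was mostly Acta1, which the heart also expresses. Acta1 had signals of 5742 on the syngraft array and 1390 on the untreated allograft, 4.13-fold lower. Mesothelial genes summed to at most 124, with 2 to 4 of the 4 measured at the floor on each array. The part of any of these cells in the collagen differences was not tested.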

How the data were processed

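Total RNA of mouse cardiac grafts was measured on 6 oligonucleotide arrays of 22690 probe sets. The authors deposited a linear signal intensity per probe set, and the mean of each array with 2% trimmed from each end was 200, so a common scaling had been applied. On scanner software, summarisation and background correction nothing was given in the sources used here. Symbols came from GEO's platform annotation. Of 22626 probe sets other than controls, 20380 had 1 gene, 691 several and 1555 none.

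Each array was rescaled to the mean of the 6 medians, floored at the 30th percentile and put on the log2 scale (Python 3.11.15, numpy 2.4.6, pandas 2.3.3). With 1 array per group no test was made. Collagens at least 2-fold higher or lower were counted beside all 12393 genes. The counting step was tested on simulated data, with shifts put only into genes well above the floor. Shifts near the floor were not covered. Members and gene lists were chosen with earlier results of these data known. Collagen genes above the floor on an array and at least 2-fold between their highest and lowest arrays were named with 6 values (18 genes). The 2 pathway genes per list whose untreated allograft lay furthest from the syngraft were also named, most of them by fold differences alone. Other named genes were chosen after their values were seen.

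Alternatives were the deposited values, quantile normalization, floors at the 10th and 50th percentiles, the mean of all probe sets, and, chosen after seeing the data, the dimmest probe set above the floor.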

Additional observations from a re-analysis of the deposited data

How the results depend on the processing

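Each collagen count and median was recomputed under 6 alternatives, giving 126 values, of which 114 stayed within 1.5-fold of the value reported. The other 12 were counts. With a floor at the 10th percentile, collagen genes at least 2-fold lower than in the untreated allograft numbered 2 with CsA, 3 with BH4, 3 with ABH4 and 1 with NIL, where 7.23%, 3.99%, 3.55% and 3.91% of all genes were lower. Those higher numbered 5 with ABH4 and 5 with NIL, where 4.34% and 7.08% were. Under that floor 3 were higher with ABH4 than with BH4 (3.96% of all genes), and 5 were lower with CsA than in the syngraft (5.64%). As shares of 36, the counts of lower genes with CsA and NIL were below those of all genes. With a floor at the 50th percentile, and likewise with the mean of all probe sets, the gene lower with BH4 was lost (0) and 1 in place of 2 was lower with CsA than in the syngraft. These floors change low signals by construction. For the probe set mean the cause was not tested.

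Of 882 values for single collagen genes (21 genes in 7 comparisons), 837 stayed within 1.5-fold, 45 moved further and 0 of those at least 2-fold changed sign. None of the 45 came from the deposited values or from quantile normalization. For genes above the floor the deposited values could not move a difference so far. They shift it by the gap between array medians, which is under 1.5-fold in every comparison. The deposited medians differed by -0.19 between untreated allograft and syngraft, and without rescaling 633 of all genes were higher and 860 lower there, against 852 and 596. No paired analysis was possible because each group had 1 array. Signals near the floor limit Col4a3, Col4a6, Col11a1, Col12a1, Col16a1, Col19a1 and Col20a1.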
